A study of Mus musculus with 20 samples.

Results

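The genes described here are Nolc1 and 9 protein genes of small nucleolar ribonucleoprotein particles (snoRNPs), followed in single mouse 8-cell (8C) embryos that did or did not inherit maternal G9a, the histone H3K9 methyltransferase encoded by Ehmt2. They were chosen by symbol, and all 10 were found among the 34937 genes counted and passed the filter on low counts. Their response to loss of maternal G9a was known when they were picked, so their values in that contrast are given as a description and no test of a single member is drawn from it. The 19 embryos with counts were collected at E2.5 from natural matings on a mixed background. In 9 of them, the Ehmt2Cntr embryos, the mother was Ehmt2F/+ and carried Zp3-Cre, which recombines a floxed allele in the growing oocyte. The 10 Ehmt2Mat embryos came from Ehmt2F/- females with the same Cre and are labelled as maternal knockouts. By zygotic genotype, 3 Ehmt2Cntr embryos were +/- and 6 were +/+, while 5 Ehmt2Mat embryos were -/- (Ehmt2M/Z) and 5 were +/- (Ehmt2M/+). The zona pellucida had been removed and morphologically abnormal embryos were not used. The mother or litter of an embryo is not in the labels, so a shared mother cannot be told apart from the maternal genotype.

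SnoRNPs guide chemical modification and processing of ribosomal RNA in the nucleolus. Box C/D particles contain fibrillarin (Fbl), which methylates ribose, with Nop56 and Nop58 as scaffold proteins. Box H/ACA particles contain dyskerin (Dkc1), which converts uridine to pseudouridine, with Gar1, Nhp2 and Nop10, and they are also part of telomerase. Shq1 holds newly made dyskerin, and Naf1 takes the place of Gar1 while the particle is assembled. Nolc1 (Nopp140) is a heavily phosphorylated protein that shuttles between the nucleolus and Cajal bodies and binds both kinds of particle.

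RefSeq held a promoter entry for 8 of the 10 genes, and not for Fbl or Naf1. The 250 bases before the annotated start site (GRCm38.p6, written 5′ to 3′ on the gene's strand) are printed for Nolc1 and Nop56, which were higher in Ehmt2Mat embryos, and for Dkc1, which was not. Capitals mark matches, on either strand, to the GC box GGGCGG, the ETS-type motif CCGGAAG or CCAAT.
Nolc1, chr19:46075597-46075846, plus strand: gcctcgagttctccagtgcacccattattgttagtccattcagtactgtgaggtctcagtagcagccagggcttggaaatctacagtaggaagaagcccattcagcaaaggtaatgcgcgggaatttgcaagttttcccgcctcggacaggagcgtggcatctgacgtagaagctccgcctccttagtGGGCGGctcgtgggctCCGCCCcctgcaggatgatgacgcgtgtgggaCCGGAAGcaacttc
Nop56, chr2:130274162-130274411, plus strand: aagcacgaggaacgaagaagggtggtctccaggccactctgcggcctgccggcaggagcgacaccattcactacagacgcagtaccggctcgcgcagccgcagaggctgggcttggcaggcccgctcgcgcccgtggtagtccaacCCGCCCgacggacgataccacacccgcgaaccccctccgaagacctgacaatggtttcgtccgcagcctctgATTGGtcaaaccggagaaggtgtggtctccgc
Dkc1, chrX:75095604-75095853, plus strand: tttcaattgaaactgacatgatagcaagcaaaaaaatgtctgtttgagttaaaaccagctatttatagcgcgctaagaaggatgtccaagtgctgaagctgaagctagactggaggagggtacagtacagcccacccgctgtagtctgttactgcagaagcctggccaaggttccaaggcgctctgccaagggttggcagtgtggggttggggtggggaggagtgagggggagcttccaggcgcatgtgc
The Nolc1 window held a GC box at -62 and another at -46, counted from the start site, and the ETS-type motif at -14. The Nop56 window held a GC box at -104 and a CCAAT match at -32. No searched motif was found in the Dkc1 window. Among genes not called higher in Ehmt2Mat embryos, Nop58, Shq1 and Nhp2 also held the GC box. The ETS-type motif was also in Gar1, Shq1 and Nhp2, and CCAAT in Nhp2, which were not called higher either. Over the 8 windows, the GC box was present in 5 (32.7% of 32851 RefSeq promoter windows of the same length held it), the ETS-type motif in 4 (6.91%) and CCAAT in 2 (33.8%). The E-box CACGTG was found in none of the 8 and in 6.02% of all windows, and the palindromic NRF1 motif in none of the 8 and in 0.782% of all windows. None of the motifs share letters in the printed windows. GC content was 56.4% for Nolc1, 65.2% for Nop56 and 52.0% for Dkc1, and the median over all windows was 52.4%.

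The embryos were compared on gene counts of 8231646 to 30602434 per embryo, at which 3 counts amount to 0.098 to 0.364 CPM, the count scaled to the size of the library. Library sizes were scaled by TMM for all CPM given here. In the first principal component, 1 control (Ehmt2Cntr 10) lay within the range of the mutants. Ehmt2 itself was at 66.6 to 253 CPM in controls and at 58.7 to 159 CPM in mutants, a log2 fold change of -0.47 ± 0.24 (standard error) that did not pass the test (edgeR, adjusted p = 0.233). Counts over the whole gene do not single out the deleted part, and zygotic transcripts are counted with maternal ones. The 6 markers of the 8-cell embryo (among them Dppa3, Tead4 and Tfap2c) were all present, with a summed level of 2085 to 3468 CPM in controls and 3077 to 4067 CPM in mutants, and 2 of them rose and 1 fell. The 5 oocyte markers summed to 34.5 to 249 CPM in controls and 96.8 to 324 CPM in mutants, with 1 higher by the test. The 6 cumulus and granulosa markers summed to at most 4.97 CPM in controls and 38.2 CPM in mutants, and 4 of them were at 0 in every embryo. The part of these markers in the results below was not tested. As each library is a whole embryo, a lower level in some blastomeres and fewer blastomeres with the transcript cannot be told apart.

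With all 19 embryos, 3 of the 10 genes were called higher in Ehmt2Mat embryos (edgeR's quasi-likelihood test, adjusted p under 0.05 over all genes), namely Nolc1, Fbl and Nop56, and 0 were called lower. Over all 11754 genes tested, 4.37% were called higher and 4.98% lower. The contrast was known when the genes were chosen, so nothing is read from that count. For the 7 genes not called, log2 fold changes lay between -0.47 and 0.42.

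**Figure D1:**
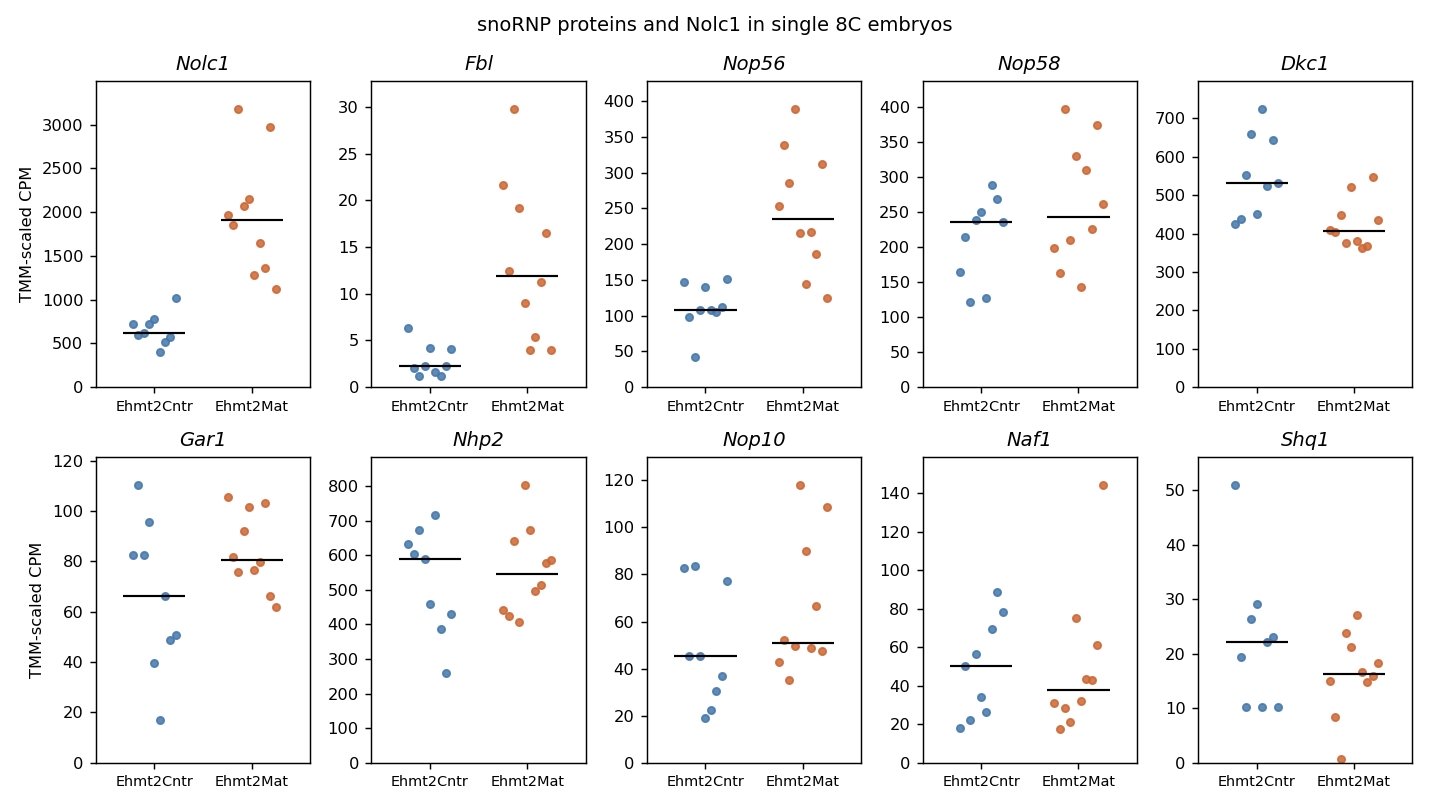
TMM-scaled CPM (linear axes from 0) of each gene in the 9 Ehmt2Cntr (blue) and 10 Ehmt2Mat (orange) embryos, with 1 point per embryo and a line at the group median. Nolc1 is the gene whose groups do not overlap, with controls up to 1020 CPM and mutants from 1116 CPM.

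Nolc1 (ENSMUSG00000015176, GRCm38 chromosome 19, 46075863 to 46085528, plus strand) was at 400.4 CPM in the lowest control, 623 CPM at the control median and 1020 CPM in the highest. In Ehmt2Mat embryos the lowest value was 1116, the median 1908 and the highest 3179 CPM. All 10 mutants lay above all 9 controls, a separation seen in 0.34% of all genes tested (40 of 11754) and in none of the other 9 members. The fold change was 2.96 (log2 fold change 1.57, standard error 0.21). The highest control was Ehmt2Cntr 10, and without that embryo the log2 fold change was 1.67. Between 5205 and 68280 counts stood behind each value. No stretch of 50 bases, the read length, in its coding transcript was shared with another annotated gene.

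Of the 3 box C/D proteins among the 10 genes, Fbl and Nop56 were called higher and Nop58 was not, a difference that was not tested. Fbl, the methyltransferase (ENSMUSG00000046865, chromosome 7, 28169748 to 28179269), ran from 1.14 to 6.32 CPM with a median of 2.26 in controls. In Ehmt2Mat embryos it ran from 3.94 to 29.8 CPM with a median of 11.9, with 7 of 10 mutants higher than any control. Its log2 fold change was 2.25 (standard error 0.51), the largest of the 10. The counts behind it were 19 to 633 per embryo. Of the 50-base windows in the Fbl coding transcript, 73.0% (838 of 1148) also occur in other annotated transcripts, mainly the processed pseudogene Gm5812 and a processed transcript of Tulp4, so its level is uncertain.

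Nop56, a scaffold of the box C/D particle (ENSMUSG00000027405, chromosome 2, 130274430 to 130279313), ran from 42.2 to 151 CPM with a median of 108 in controls. In mutants it ran from 124 to 389 CPM with a median of 235. The log2 fold change was 1.13 (standard error 0.23), 8 of 10 mutants exceeded every control, and the 2 remaining mutants, Ehmt2Mat 6 and Ehmt2Mat 10, lay within the range of the controls. The windows shared with other transcripts, chiefly processed pseudogenes, came to 37.6% of its coding transcript, so the level of Nop56 is uncertain too.

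Nop58, the partner scaffold (ENSMUSG00000026020, chromosome 1, 59684971 to 59719044), overlapped between the groups. Controls ran from 122 to 288 CPM (median 235) and mutants from 142 to 397 CPM (median 243). Its log2 fold change was 0.30 (standard error 0.21), and 5 of 10 mutants lay above the control median. Per kilobase of exon, the log2 ratio of Nop56 to Nop58 averaged 0.46 over the 9 controls (SD 0.50) and 1.30 over the 10 mutants (SD 0.67), with 4 of 10 mutants above every control.

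None of the 6 box H/ACA genes was called in either direction, and their median log2 fold change was 0.05, beside -0.04 over all genes tested. Dkc1, the pseudouridine synthase (ENSMUSG00000031403, chromosome X, 75095854 to 75109777), was the one with the least spread. Controls ran from 425 to 725 CPM (median 531) and mutants from 364 to 549 CPM (median 407). Thus 9 of 10 mutants lay below the control median and 6 lay below every control, at a log2 fold change of -0.37 (standard error 0.14). DESeq2 called Dkc1 lower, where it called 6.49% of its 15164 genes lower. Y-linked transcripts exceeded 1 CPM in 5 of 9 controls and 9 of 10 mutants, and with sex as a covariate the log2 fold change of this X-linked gene was -0.27. With a cut of 10 CPM, chosen after seeing the data, 5 of 9 controls and 8 of 10 mutants exceeded it. The log2 fold change was then -0.32. The last 45 bases of Dkc1 exons lie opposite Mpp1, and reads of antisense genes are not told apart in unstranded counts.

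Per kilobase of exon, Nolc1 exceeded Dkc1 by a mean log2 ratio of 0.43 over the 9 controls (SD 0.57) and of 2.32 over the 10 Ehmt2Mat embryos (SD 0.41). The highest control reached 1.12 and the lowest mutant 1.54, so the groups did not overlap. Nolc1 alone already separated the groups, and Dkc1 had a log2 fold change of -0.37, so nothing further is read from this ratio. How many pairs of genes separate in this way was not computed. For Gar1 to Nhp2, 4 mutants lay above every control, and for Nop10 to Nhp2, 1 did.

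Gar1, which helps dyskerin load and release its substrate (ENSMUSG00000028010, chromosome 3, 129824912 to 129831396, minus strand), ran from 17.0 to 110 CPM with a median of 66.3 in controls. In mutants the range was 61.7 to 106 CPM with a median of 80.7. All mutants lay inside the range of the controls, and the coefficient of variation was 44.9% in controls and 18.4% in mutants. The log2 fold change was 0.36 (standard error 0.25).

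Nhp2, which binds the RNA of the H/ACA particle (ENSMUSG00000001056, chromosome 11, 51619735 to 51623714), was at 259 to 717 CPM, median 590, in controls and 407 to 804 CPM, median 546, in mutants. The log2 fold change of 0.08 (standard error 0.18) was smaller than its error. Its exons overlap Rmnd5b on the opposite strand by 44 bases. Nop10, the smallest core protein (ENSMUSG00000027133, chromosome 2, 112261926 to 112263269), ran from 18.9 to 83.5 CPM, median 45.3, in controls and from 35.3 to 118 CPM, median 50.9, in mutants, a log2 fold change of 0.42 (standard error 0.31).

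Both assembly factors were low and variable. Naf1 (ENSMUSG00000014907, chromosome 8, 66860217 to 66890564) ran from 18.0 to 88.5 CPM, median 50.2, in controls and from 17.3 to 144 CPM, median 37.6, in mutants. Its log2 fold change of 0.01 (standard error 0.38) was -0.34 without Ehmt2Mat 10, the highest embryo. Shq1 (ENSMUSG00000035378, chromosome 6, 100568256 to 100671157, minus strand) ran from 10.2 to 51.0 CPM, median 22.1, in controls and from 0.727 to 27.1 CPM, median 16.3, in mutants, with only 6 counts in Ehmt2Mat 3. Its log2 fold change was -0.47 (standard error 0.43), and -0.23 without Ehmt2Cntr 1, the highest control.

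**Figure D2:**
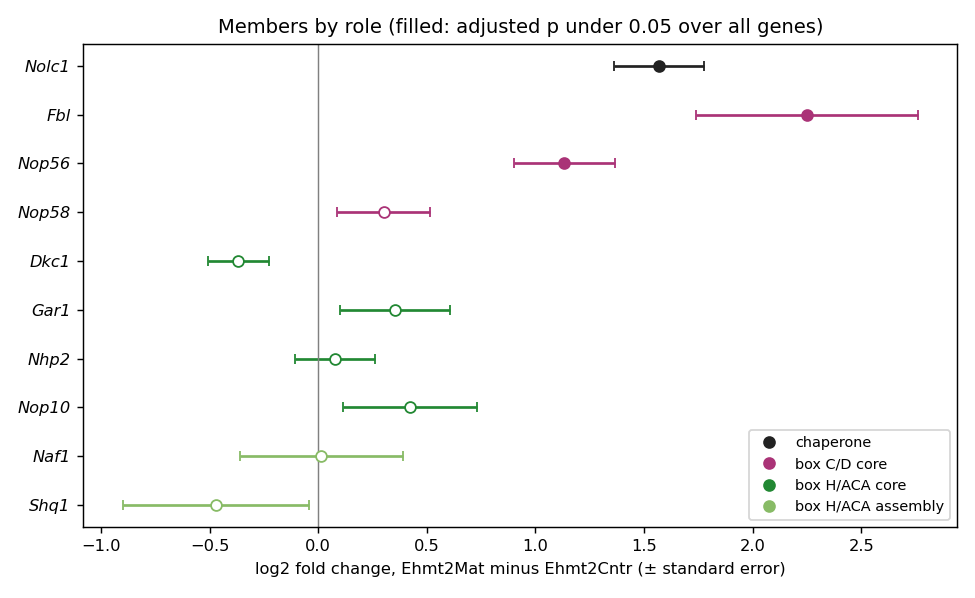
Log2 fold change between 10 Ehmt2Mat and 9 Ehmt2Cntr embryos for each gene, with bars of 1 standard error, coloured by role and filled where the adjusted p over all genes was under 0.05. Nolc1 (1.57), Fbl (2.25) and Nop56 (1.13) are filled, and the 6 box H/ACA genes lie between -0.47 and 0.42.

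Levels were ordered per kilobase of exon, since longer genes gather more reads. The cDNA protocol favours 3′ ends, so this scale understates genes with long exons such as Nop58 (10758 exon bases). Exon bases cover all annotated exons, 4099 for Nop56 and 4121 for Dkc1, beside 1877 and 2804 in their coding transcripts. The scale can therefore understate these genes as well. In controls, Nhp2 was highest at 460 ± 133 CPM per kilobase (SD, n = 9), followed by Nolc1 at 182 ± 49 and Dkc1 at 133 ± 26. The next genes were Nop10 at 44.4 ± 23.1, Gar1 at 38.5 ± 17.3 and Nop56 at 27.4 ± 8.0 CPM per kilobase. At the lower end were Nop58 at 19.7 ± 5.6, Naf1 at 16.5 ± 8.6, Shq1 at 3.20 ± 1.84 and Fbl at 2.41 ± 1.48 CPM per kilobase. Dkc1 and Nop10 were the one pair of neighbours in this order whose ranges over the controls did not overlap. In Ehmt2Mat embryos Nolc1 averaged 539 ± 188 CPM per kilobase (SD, n = 10) beside 486 ± 109 for Nhp2, Nop56 reached 60.2 ± 20.9, and Fbl, at 11.5 ± 7.3, stood above Shq1 at 2.31 ± 1.08.

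**Figure D3:**
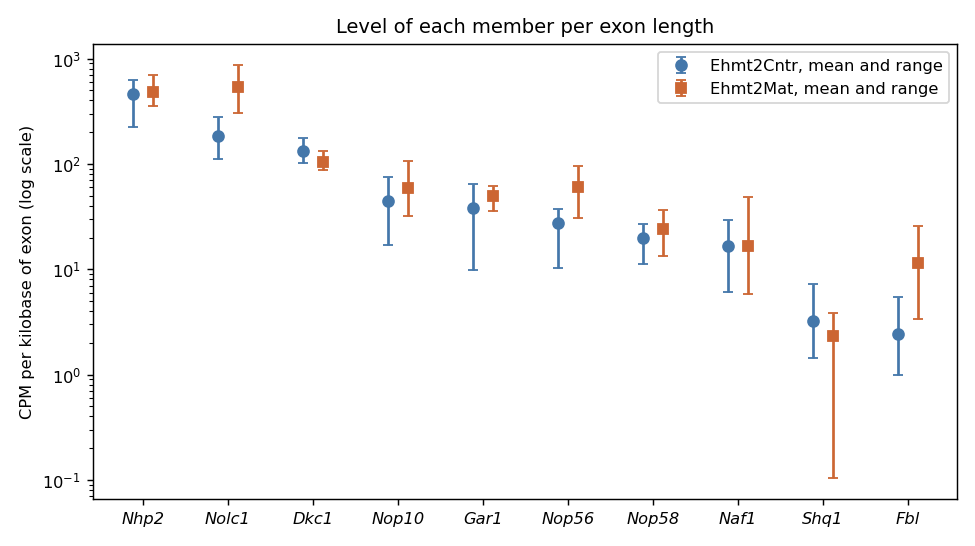
TMM-scaled CPM per kilobase of exon (log axis) of the 10 genes, ordered by their control mean, with the mean and the full range over 9 Ehmt2Cntr (circles) and 10 Ehmt2Mat (squares) embryos. The means in controls fall from 460 for Nhp2 to 2.41 for Fbl, and in mutants Nolc1 averages 539 beside 486 for Nhp2.

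Whether a functional zygotic copy of Ehmt2 goes with another level of these genes was asked in a contrast not used to choose them. Between 5 Ehmt2M/Z and 5 Ehmt2M/+ embryos, 0 of the 10 genes and 0 of 12195 genes were called by edgeR (0.0%), with 270 genes (2.21%) at an unadjusted p under 0.05. DESeq2 called 15 genes (0.099%) and none of the 10. Nolc1 was at 1968, 2074, 2150, 1649 and 2972 CPM in the Ehmt2M/Z embryos. In the Ehmt2M/+ embryos it was at 1848, 3179, 1285, 1364 and 1116 CPM. The groups overlapped, and the log2 difference was 0.31 (95% confidence interval -0.30 to 0.91, two-sided exact permutation p = 0.262). Nop56 gave the smallest permutation p of the 10, 0.214 in an exact test, with a log2 difference of 0.37 (95% confidence interval -0.26 to 1.00). For Fbl the interval was wide, -1.09 to 1.57 around 0.24. The log2 differences of all 10 lay between -0.20 and 0.41, and the smallest p that 252 splits of 5 and 5 embryos allow is 0.00794.

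Among the controls, 0 of the 10 genes and 0 of 12646 genes were called between 3 +/- and 6 +/+ embryos by edgeR (0.0%), with 572 genes (4.52%) at an unadjusted p under 0.05. Nop10 was the one gene of the 10 at an unadjusted p under 0.05. It was at 82.7, 83.5 and 77.4 CPM in the +/- embryos, and in the +/+ embryos the lowest was 18.9, the median 33.6 and the highest 45.5 CPM. Every +/- embryo lay above every +/+ embryo, as was the case for 1.51% of all genes tested. The log2 difference was 1.30 (standard error 0.38, 95% confidence interval 0.50 to 2.11, adjusted p = 0.9998 over all genes from edgeR). The two-sided exact permutation p was 0.0119, the smallest that 84 splits of 3 and 6 allow, and it was one of 20 such tests on the 10 genes in both contrasts. With DESeq2, Nop10 was called higher (adjusted p = 0.044, the lowest over 7 alternatives that gave up to 1.0) among 54 of 14050 genes (0.384%). With each control left out in turn the log2 difference was 1.17 to 1.41. Between Ehmt2M/Z and Ehmt2M/+ embryos Nop10 differed by -0.20 on the log2 scale (95% confidence interval -1.01 to 0.60). Nolc1 in the controls was at 719.8, 623 and 1020 CPM in the +/- embryos and at 400.4 to 778 CPM in the +/+ embryos, a log2 difference of 0.41 (95% confidence interval -0.17 to 1.00, exact permutation p = 0.179) that was 0.15 without Ehmt2Cntr 10.

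Restricting the maternal contrast to +/- zygotes held the zygotic genotype equal but left 3 controls and 5 mutants. Ehmt2Cntr 10, the control within the range of the mutants in the first principal component and the highest for Nolc1, was among these 3. Its part in the values below was not tested. There the log2 fold changes were 1.13 for Nolc1, 1.65 for Fbl and 0.90 for Nop56, and none of the 3 was called. Over all 13401 genes, 0 were called higher and 1 lower by edgeR, with 906 (6.76%) at an unadjusted p under 0.05. Nop10 turned to -0.22 in this subset.

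**Figure D4:**
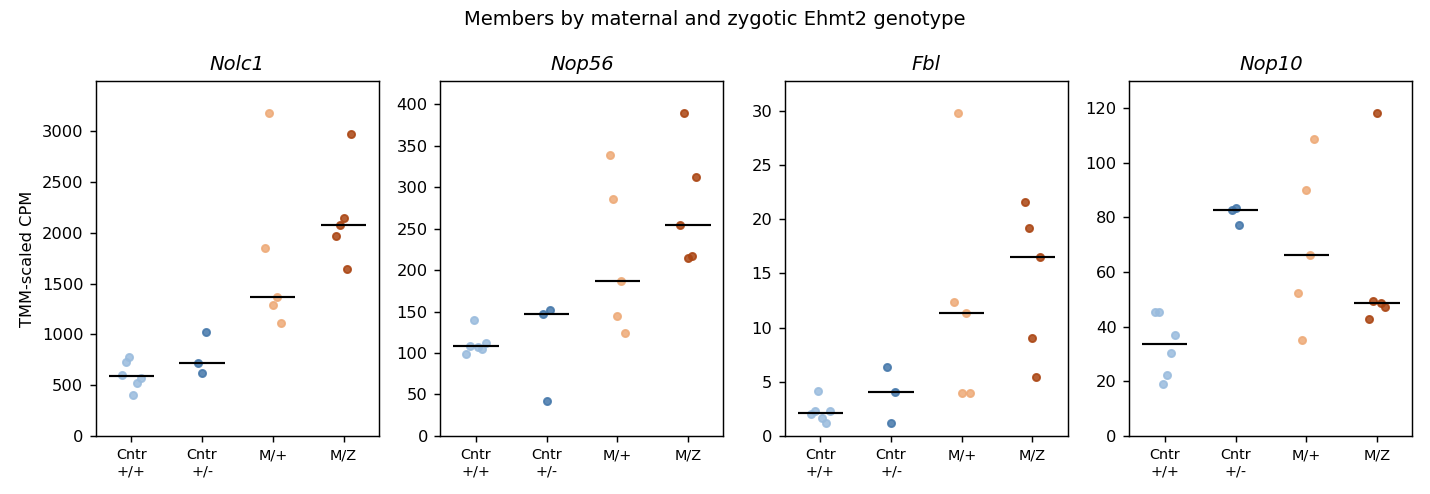
TMM-scaled CPM (linear axes from 0) of Nolc1, Nop56, Fbl and Nop10 in 6 Cntr +/+, 3 Cntr +/-, 5 Ehmt2M/+ and 5 Ehmt2M/Z embryos, with 1 point per embryo and a line at the median. Nolc1 lies at 1116 CPM or more in both mutant groups, and Nop10 lies at 77.4 to 83.5 CPM in the Cntr +/- embryos, above all Cntr +/+ embryos.

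Around these genes, 5 lists of 51 other snoRNP pathway genes were examined, of which 48 were tested, and 6 were called higher and 0 lower in Ehmt2Mat embryos. Of all 11754 genes tested, 4.37% were called higher and 4.98% lower by the same test. The median log2 fold change of the 48 was 0.19, beside -0.04 over all genes tested. The 5 lists were chosen with earlier results of these data known. Their counts and adjusted p-values are therefore given as a description, and nothing is read from the counts. In the list named for box C/D assembly, which also held the particle proteins Snu13 and Rrp9, 4 of 11 genes were called higher. The list median was 0.51. Rrp9, a protein specific to the U3 particle, rose from a median of 47.6 CPM (range 12.9 to 70.6) to 78.4 CPM (range 32.6 to 198), by 1.14 ± 0.34 on the log2 scale (fold change with its standard error, adjusted p = 0.0331 by edgeR's test). Hsp90ab1, the constitutive HSP90 that acts with the R2TP complex, rose from a median of 2988 to 5616 CPM (0.95 ± 0.23 on the same scale, adjusted p = 0.00995 by edgeR). Its paralog Hsp90aa1, in the same list, was at -0.55 ± 0.29 and was not called (adjusted p = 0.258 by edgeR). Znhit6, a zinc-finger assembly factor, rose from 88.8 to 162 CPM at the median (0.81 ± 0.21, adjusted p = 0.0142 by edgeR), with 6 of 10 mutants above every control. The R2TP ATPases Ruvbl1 and Ruvbl2 had log2 fold changes of 0.18 and 0.52 and did not pass. The fourth call, Snu13, the protein that binds the kink-turn of box C/D RNA, had a log2 fold change of 0.68. In 19 fits that each left out 1 embryo, Hsp90ab1 and Znhit6 were called in all. In the 12 other settings tried, Znhit6 was called in 11, Hsp90ab1 and Snu13 in 10 and Rrp9 in 8, and none of the 4 was called among +/- zygotes. With the log2 total count as a covariate, Rrp9 and Snu13 lost their calls and 2 of 11 genes remained called. With sex as a covariate Rrp9 lost its call. Among the 19 fits with 1 embryo left out, Rrp9 was called in 13 and lost its call without Ehmt2Cntr 5, 7 or 8 or Ehmt2Mat 2, 3 or 9 (log2 fold change 0.96 to 1.25, adjusted p = 0.0149 to 0.0702 by edgeR over the 19). Snu13 was called in 9 and lost its call without Ehmt2Cntr 2, 6, 7, 8 or 9 or Ehmt2Mat 2, 3, 4, 5 or 9 (log2 fold change 0.60 to 0.82, adjusted p = 0.0119 to 0.0677 by edgeR).

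Of 8 relatives and partners of Nolc1, 2 were called higher, where 4.37% of all genes tested were. Ncl (nucleolin) rose from a median of 748 CPM (range 463 to 1109) to 1425 CPM (range 855 to 2232), with 7 of 10 mutants above every control (log2 fold change 0.87 ± 0.19, standard error, adjusted p = 0.00491 by edgeR). Tcof1 (treacle), a nucleolar phosphoprotein related to Nolc1 in its repeats, rose from a median of 92.9 to 129 CPM (0.65 ± 0.20, adjusted p = 0.0408 by edgeR). Ncl was called in all 19 fits with 1 embryo left out, and Tcof1 in 7 of them, those without Ehmt2Cntr 9 or 10 or Ehmt2Mat 1, 5, 6, 8 or 10 (adjusted p = 0.024 to 0.0804 by edgeR over the 19). In the 12 other settings Ncl was called in 11 and Tcof1 in 9. The subunits of casein kinase 2, which phosphorylates Nolc1, were not called with all 19 embryos, with log2 fold changes of -0.55 for Csnk2a1, -0.67 for Csnk2a2 and 0.04 for Csnk2b. Without Ehmt2Mat 6, Csnk2a2 was called lower (adjusted p = 0.0484, the lowest over the 19 fits with 1 embryo left out, which gave up to 0.226 by edgeR), and it was called in 0 of the 12 other settings. Npm1, an abundant nucleolar protein, was at 0.25 and not called.

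No call in either direction was made in the 3 remaining lists. They held 10 factors of snoRNA maturation and the Cajal body (median log2 fold change 0.01), 12 pseudouridine synthases that act without a guide RNA (0.18) and 7 tested non-coding snoRNA host genes (0.16). Xpo1, the exportin that carries snoRNA complexes, had the lowest value of all 48, at -1.24 ± 0.42 on the log2 scale (standard error, adjusted p = 0.0602 by edgeR). It was called lower in 4 of 12 other settings and in 4 of the 19 fits with 1 embryo left out (without Ehmt2Cntr 1 or 3 or Ehmt2Mat 5 or 10). Snhg1, Snhg4 and Snhg7 were not analysed here.

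**Figure D5:**
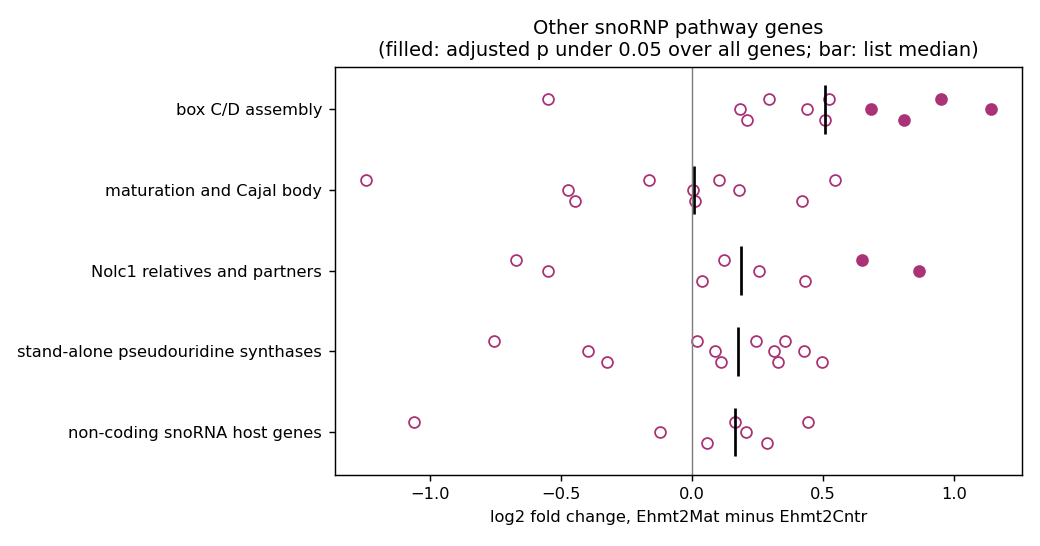
Log2 fold change between Ehmt2Mat and Ehmt2Cntr embryos for the 48 tested genes of 5 pathway lists, with 1 point per gene, filled where the adjusted p over all genes was under 0.05, and a bar at each list's median. The 6 filled points are all above 0 and belong to box C/D assembly (4) and to the relatives and partners of Nolc1 (2). Over all genes tested, the shares called were 4.37% higher and 4.98% lower.

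Several of the genes host snoRNAs. By coordinates, 10 annotated snoRNA genes lay within Nop56, Nop58 and Dkc1, and 5 of them lay outside the host's exons, where a read cannot belong to the spliced host. Those 5 had at most 15 counts in any embryo. In Nop56, Snord110 was at 0 in all 19 embryos, and so was Gm25520 in Dkc1. The snoRNA genes not among those 5 overlap exons of their host, where counts of both cannot be told apart. Whether this cDNA protocol captures mature snoRNAs was not tested, so low counts are not read as low snoRNA levels.

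After removal of group means, variation between embryos was compared among the 10 genes. Over their 45 pairs, Pearson's r of log2 CPM (n = 19 embryos, which share the depth and the protocol) had a median of -0.04 and a range of -0.46 to 0.78. The highest pair was Fbl with Nop56 (r = 0.78, Spearman's rho = 0.81, r = 0.79 without the 2 embryos farthest from the median). Nolc1 with Fbl followed (r = 0.76, rho = 0.72, r = 0.65 without the 2 farthest embryos), and 4 pairs exceeded 0.5. These are descriptions across embryos of 2 groups.

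The 5 genes outside the list whose deviations were most like those of Nolc1 were Eif3c (r = 0.88, rho = 0.89), Paf1 (r = 0.84), Nop2 (r = 0.84), Sardh (r = 0.84) and Gm15392 (r = 0.83), over the same 19 embryos. Without the 2 farthest embryos these values were between 0.75 and 0.82. For the mean deviation of the 10 genes they were Cenpp (r = 0.74), Prpf18 (r = 0.73), ENSMUSG00000106744 (r = 0.70), Nob1 (r = 0.70) and Zfp330 (r = 0.70). Without the 2 farthest embryos r was 0.62 for Cenpp, 0.60 for Prpf18, 0.67 for ENSMUSG00000106744, 0.45 for Nob1 and 0.76 for Zfp330. They were picked from all genes as the highest, which is why no test is attached.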

How the data were processed

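RNA of single embryos was amplified to cDNA by a protocol with 3′ bias and sequenced as single-end reads. The authors deposited raw counts per gene and embryo, made with featureCounts 1.5.0 on Ensembl release 82 (GRCm38), with multimapping and overlapping reads included, at least 10 overlapping bases, and no strand option, per the file headers. TopHat2 is named in the submitters' processing notes. Of 20 embryos in the sample records, the counts of Ehmt2Cntr 4 were not analysed here. Embryos were grouped by the maternal and zygotic genotypes in the labels, and nothing says that they came from separate litters, so p-values measure the spread between these embryos.

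Genes were filtered with filterByExpr and tested with edgeR 4.0.16 (R 4.3.3, TMM, quasi-likelihood test, Benjamini-Hochberg adjustment over all genes, threshold 0.05), with a separate filter and fit for each contrast. DESeq2 1.42.0, other scalings, filters, covariates and embryo subsets were alternatives. CPM use TMM-scaled library sizes, and log2 CPM for correlations use a prior count of 2. Confidence intervals use the 95% level and the moderated degrees of freedom. The scripts were tested on simulated data. Single genes were compared by exact permutation tests (SciPy 1.17.1). IDs were matched to symbols for 34599 of 34937 genes. Shared 50-base windows were found in GENCODE transcripts of the same build, and promoter windows came from RefSeq.

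The members and lists were chosen with earlier results of these data known. Named were the 10 members, Ehmt2, at most 3 called genes per list and direction with the largest change, snoRNA genes within members, and the 5 genes most like Nolc1 or the members' mean. Snu13, Hsp90aa1, Ruvbl1, Ruvbl2, Xpo1, Npm1 and the casein kinase 2 genes were named after their values were seen. Embryo totals were 8231646 to 30602434 counts. The intervals come from the edgeR fits and include the spread between embryos. The edgeR standard errors were derived as the absolute log2 fold change divided by the square root of its quasi-likelihood F statistic. The intervals were built from these errors.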

Additional observations from a re-analysis of the deposited data

Results flagged for a closer look

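The gap of the outermost embryo over its group's range was held against Dixon's 95% limit. In 3 of 20 groups of embryos (10 genes in 2 maternal groups), 1 embryo stood apart from the others by more than this limit. Chance gives that in about 1 in 20 groups if values are normally distributed. The rule was applied to CPM without a log scale, so the 3 flags are not compared with that rate. Nop56 was at 42.2 CPM in Ehmt2Cntr 3, below the next control at 98.5 CPM. Naf1 was at 144 CPM in Ehmt2Mat 10, above the next mutant at 75.3 CPM. Shq1 was at 51.0 CPM in Ehmt2Cntr 1, above the next control at 29.1 CPM.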

How the results depend on the processing

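The calls of Nolc1, Fbl and Nop56 were made in 11 of the 13 other settings that left no single embryo out, and in all 19 fits that left out 1 embryo (3 higher and 0 lower in each). Restricted to +/- zygotes, 0 members and 0 pathway genes were called higher, with fewer embryos in the fit. The log2 fold changes of Nhp2 and Nop10 were then -0.042 and -0.22, against 0.08 and 0.42. With DESeq2, 1 member (Dkc1) and 1 pathway gene (Xpo1) were called lower, and 1 member (Nop10) was called higher between Cntr +/- and Cntr +/+ embryos. The same embryo numbers do not pair embryos across groups by the labels, and deviations of same-numbered embryos correlated at -0.16 to 0.09, with 0 of 9 pairs over 0.1. When embryo number entered the fit as a replicate block, a fit without Ehmt2Mat 4, 2 members (Nolc1 and Nop56) were called higher where 3.02% of genes were, with 3 pathway genes higher and 1 lower, and Rrp9, Hsp90ab1 and Tcof1 lost their calls. Requiring at least 10 counts in every embryo gave 1 pathway gene lower and left Shq1 untested. The mitochondrial share as a covariate, chosen like the total count and a sex cut of 10 CPM after seeing the data, also gave 1 pathway gene lower. A minimum log2 change of 1 in either direction kept 1 pathway gene higher. With 1 embryo left out, pathway genes called higher ranged from 3 to 7 and those lower from 0 to 1. The count of 3 came without Ehmt2Cntr 7 or 8 or Ehmt2Mat 2, 3 or 9, and the call lower was Xpo1 without Ehmt2Cntr 1 or 3 or Ehmt2Mat 5 or 10, and Csnk2a2 without Ehmt2Mat 6. Naf1 had no stable sign, with -0.34 to 0.16 over embryos left out, -0.022 under the minimum of 10 counts and -0.010 with the mitochondrial share. Nhp2 ranged from -0.0063 (without Ehmt2Cntr 9) to 0.14 over embryos left out, and Nop10 between Ehmt2M/Z and Ehmt2M/+ from -0.58 to 0.0085 (without Ehmt2Mat 10). The cause of these changes was not tested. Thinning all embryos to the lowest total moved the standard error of Fbl from 0.51 to 0.52 and left that of Shq1 at 0.43.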
